A study of Homo sapiens with 6 samples.

Results

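Transcripts of 8 genes of the red-cell surface and its membrane skeleton were followed in extracellular vesicles (EVs) released by K562 cells and in the whole cells (WC). The genes were taken by name: the glycophorins GYPB, GYPC and GYPE, the membrane-skeleton genes SPTB, ANK1, EPB41 and EPB42, and the erythropoietin receptor EPOR. All 8 were found among the 68201 genes of the count table, and 6 of them were among the 8716 genes with enough reads to test. SPTB and EPB42 were not.

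K562 is a line from a human chronic myeloid leukemia that carries erythroid features. EVs of untreated wild-type K562 cells were collected from medium with EV-depleted serum and purified by size exclusion chromatography, and WC RNA came from untreated wild-type K562 cells that, by the study's methods, were taken from the same cultures at the time the medium was collected. Each group had 3 libraries of cDNA, made from polyadenylated RNA, amplified by PCR and read on nanopores, and libraries with the same replicate number were run on 1 flow cell. The study's methods describe the replicates as biological, each from flasks of its own, all of 1 cell line.

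Glycophorins are sialic-acid-rich proteins that cover the red-cell surface, and several of them carry blood-group antigens. Beneath the membrane lies a lattice of spectrin and short actin filaments. Ankyrin ties spectrin to the anion exchanger with the help of the EPB42 protein, and protein 4.1 strengthens the contact of spectrin with actin and ties it to glycophorin C. Erythropoietin acts through its receptor to keep erythroid precursors alive.

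EV libraries held 560157 to 881338 gene counts and WC libraries 2480560 to 3178211, with 12891 to 14263 genes read in EVs and 21997 to 23874 in WC. Levels below are CPM, counts over the library size after TMM scaling (a correction for library composition). Fold changes are log2 values of EV over WC from the quasi-likelihood test of edgeR, and p-values were adjusted by the Benjamini-Hochberg method over all tested genes. Of 13 erythroid identity genes 12 could be tested, with a median log2 fold change of 1.21. Among those counted next as risen, HBA1 and HBA2 had nearly equal counts (10, 21 and 27 against 11, 22 and 26 EV reads), so they may not be separate results. HBG1 lost its call with DESeq2 (0.64, adjusted p = 0.0811). With scaling by total counts HBG1, HBA1, HBA2 and ALAS2 lost theirs, while HBG2, HBZ, TAL1 and LMO2 kept it. Of the 12, 8 rose and 2 fell, where 22.8% and 21.4% of all tested genes did. The list of 13 summed to 773.7 to 910.9 CPM in EVs against 526.7 to 594.6 CPM in WC. Much of that gap came from 1 gene, HBG2. It had 189.3, 196.6 and 264.8 CPM in EV replicates 1 to 3, against 15.11, 9.96 and 8.14 CPM in WC. The sums therefore do not show that the erythroid genes as a group were higher in EVs. In WC the sum rested most on TFRC (145.4 CPM), NFE2 (112.4 CPM) and GATA1 (99.15 CPM), while HBE1 (0.33 CPM) and HBZ (1.78 CPM) were low. A change between EVs and WC does not show cell identity. Of 12 markers of other cell types 4 had no reads. That list summed to 32.92 to 62.45 CPM in EVs against 118.9 to 166.4 CPM in WC, mostly from EPCAM and ITGA2B. In WC EPCAM averaged 73.63 CPM and ITGA2B 52.72 CPM, above several of the erythroid genes. A bulk library cannot tell fewer vesicles or cells holding an RNA from less of it in each.

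Of the 6 tested genes EPB41 fell in EVs, none rose, and 5 did neither by edgeR, and 0 rose at an unadjusted p under 0.05 or by DESeq2. Over all 8716 tested genes 22.8% rose and 21.4% fell. No gene of the 6 had all EV libraries above all WC libraries (24.9% of all tested genes did), and 2 of them, GYPE and EPB41, had all EV libraries below all WC libraries (30.3% did). The median log2 fold change was -0.43 over the 6 genes and -0.13 over all tested genes. Scaling by total counts moved the median of all tested genes to -0.78, and under it 5 of the 6 fell, all but GYPC. Under that scaling 4494 of the 8716 tested genes fell and 1066 rose.

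**Figure D1:**
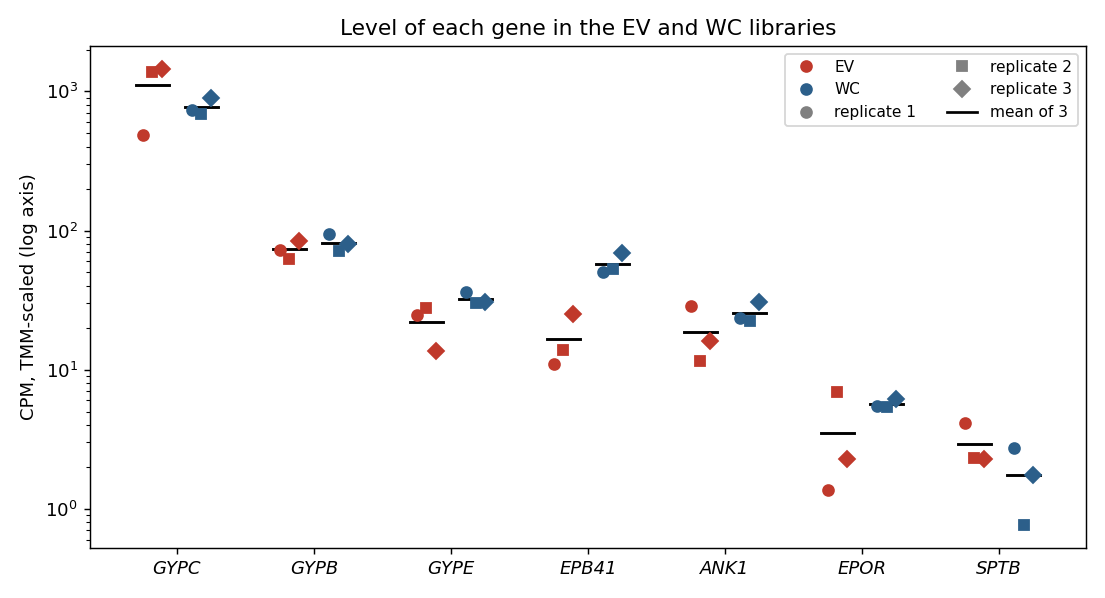
CPM (log axis) of 7 genes in the 3 EV libraries (red, left) and the 3 WC libraries (blue, right), with marker shapes for replicates and a bar for the mean of 3. EPB41 sits at 10.97 to 25.11 CPM in EVs and 50.15 to 68.64 CPM in WC, and GYPC of EV replicate 1 lies under every WC library. EPB42, with 1 read in all, is not drawn.

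GYPC (chr2:126656133-126696667, plus strand, GRCh38) encodes glycophorin C, the membrane anchor that protein 4.1 binds. It took most of the reads of the set: 77.4%, 91.8% and 91.0% of the counts of the 8 genes in the EV libraries, against 77.6%, 79.0% and 80.4% in the WC libraries. Its level was 489.7, 1390 and 1456 CPM in EV replicates 1 to 3, against 735.8, 686.2 and 894.7 CPM in WC replicates 1 to 3. EV replicate 1 lay below every WC library and the other EV libraries above every one, so the groups overlapped. The means were 1112 ± 540 CPM in EVs and 772.2 ± 108.9 CPM in WC (SD, n = 3 each). The log2 fold change of GYPC was 0.52 (SE 0.45, 95% interval -0.65 to 1.68, edgeR adjusted p = 0.412).

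The GYPC result turned on EV replicate 1. Without it the log2 fold change was 0.85 and GYPC counted as risen (edgeR adjusted p = 6.39e-08). Under total-count scaling the sign turned, to -0.17 (edgeR adjusted p = 0.746). In log2 CPM, GYPC of EV replicate 1 stood -1.54 from the mean of the other EV libraries, where the median over all tested genes was 0.02 and 2.95% of them lay as low or lower. The coding genes closest to GYPC over the 6 libraries, of 6767 compared by Euclidean distance in log2 CPM, were HINT1 at 0.87, NDUFA4 at 0.98 and EEF1B2 at 1.04. HINT1 encodes a nucleotide hydrolase, NDUFA4 a subunit of the respiratory chain and EEF1B2 a translation elongation factor. HINT1 had 783.3, 1145 and 1288 CPM in EV replicates 1 to 3, against 872.9, 817.7 and 742.3 CPM in WC.

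GYPC isoforms were described by pooled values, the authors' means of normalized reads over the 6 libraries. The authors' isoform models held 3 for GYPC, all predicted productive, and 2 had a level: 79.92 for GYPC-201, with 4 exons and 992 nt, and 15.33 for GYPC-203, with 3 exons and 935 nt. Their sum was 95.26, beside 1202 mean normalized reads for the gene. Genes and isoforms were normalized in separate tables, so the gap is a description only. GYPC-203 lacks an exon of 57 nt (chr2:126690255-126690311, plus strand, GRCh38), shown because it is the whole difference between the exons of the 2 models:
GYPC exon: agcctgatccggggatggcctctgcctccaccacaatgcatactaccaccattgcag
The length is a multiple of 3 and keeps the reading frame, and the exon lies in the coding sequence. Levels per library of the 2 models are not used here, so no share in EVs against WC is given.

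GYPB (chr4:143996104-144019380, minus strand) encodes glycophorin B, which carries the Ss antigens. Its level was 72.7, 62.45 and 84.47 CPM in EV replicates 1 to 3, against 93.78, 70.71 and 80.28 CPM in WC replicates 1 to 3. The libraries of the groups intermingled. The means were 73.21 ± 11.02 CPM in EVs and 81.59 ± 11.59 CPM in WC (SD, n = 3 each), with a log2 fold change of -0.15 (SE 0.20, 95% interval -0.57 to 0.26, edgeR adjusted p = 0.562). The EV values rest on 53, 27 and 37 reads. Total-count scaling gave -0.81 (edgeR adjusted p = 0.0017). Exons of GYPB share 7.9% of their length with an lncRNA on the other strand, which had no reads in EVs.

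GYPE (chr4:143870864-143905563, minus strand) encodes glycophorin E, a relative of glycophorin B. It had 24.69, 27.75 and 13.7 CPM in EV replicates 1 to 3, from 18, 12 and 6 reads, against 36.41, 30.12 and 30.54 CPM in WC replicates 1 to 3. Every EV library lay below every WC library, and EV replicate 3 was the lowest. The log2 fold change of GYPE was -0.52 (SE 0.28, 95% interval -1.10 to 0.05, edgeR adjusted p = 0.133), which does not pass the threshold. With total-count scaling it was -1.17 (edgeR adjusted p = 0.00125). For each GYPB read there were 0.34, 0.44 and 0.16 GYPE reads in EVs, against 0.39, 0.43 and 0.38 in WC.

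GYPB and GYPE descend from copies of one ancestral gene and lie near each other on chromosome 4, so a read can be hard to assign to one of them and their counts are uncertain to that extent. The exon of 99 nt that encodes the start of the mature protein is nearly alike in both and is shown for that reason, with the 4 positions that differ in capitals (5′ to 3′, minus strand, GRCh38, chr4:144001185-144001283 for GYPB, chr4:143880411-143880509 for GYPE):
GYPB: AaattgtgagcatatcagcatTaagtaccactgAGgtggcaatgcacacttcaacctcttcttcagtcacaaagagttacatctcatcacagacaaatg
GYPE: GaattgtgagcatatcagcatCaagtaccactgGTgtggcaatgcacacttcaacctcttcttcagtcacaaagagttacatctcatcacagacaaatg
The copies matched at 95 of 99 bases. Of the isoform models that lie within the gene and span this exon, 3 of 9 for GYPB and 0 of 5 for GYPE lack it. Over whole transcripts the likeness was lower: the best match of the GYPB and GYPE transcripts was 80.5% identical over 308 nt, and 60.6% of the GYPB transcript was matched.

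Isoform levels of GYPB and GYPE were low and spread over few models. GYPB-213, a productive model of 4 exons and 409 nt that lacks the 99 nt exon, had an authors' mean of 20.59, and it was the 1 model within GYPB with a level. The gene had 99.94 mean normalized reads. GYPE-201, with 4 exons and 1691 nt, had 10.69, and GYPE-202, with 4 exons and 499 nt, had 7.079, beside 35.3 for the gene. Both GYPE models hold the 99 nt exon and are predicted productive.

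**Figure D2:**
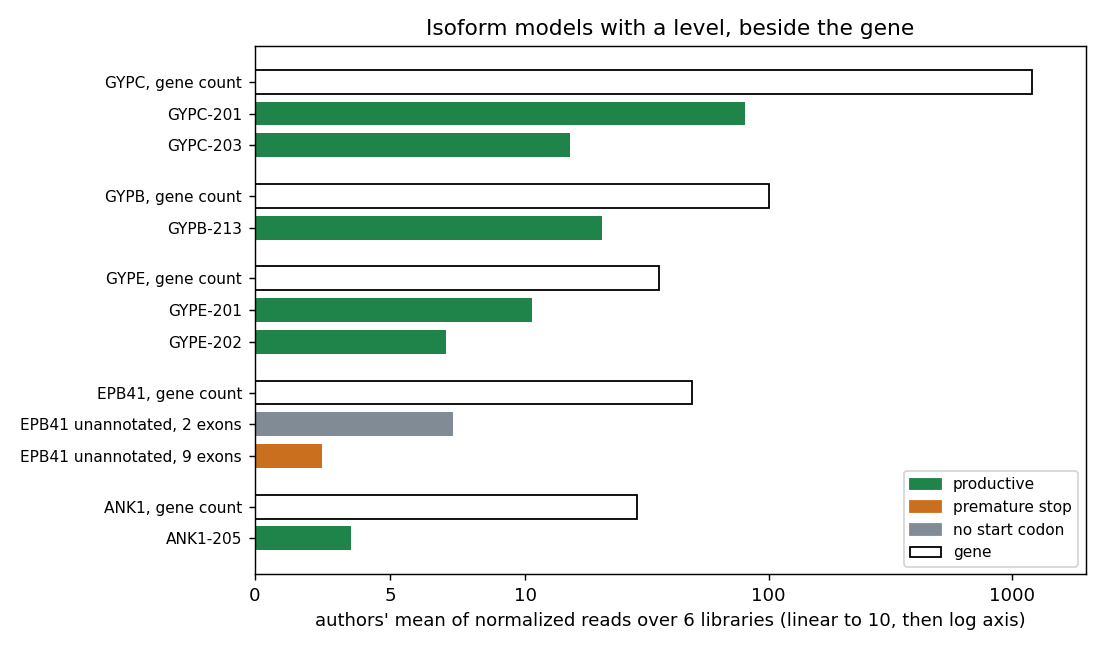
Authors' means of normalized reads (linear to 10, then log axis) of the isoform models with a level that lie within their gene, coloured by predicted productivity, beside the gene's mean normalized reads (open bars). GYPC models sum to 95.26 beside 1202 for the gene, and the GYPB model has 20.59 beside 99.94.

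EPB41 (chr1:28887091-29120046, plus strand) encodes protein 4.1, which joins spectrin and actin to glycophorin C. It had 10.97, 13.88 and 25.11 CPM in EV replicates 1 to 3, from 8, 6 and 11 reads, against 50.15, 52.84 and 68.64 CPM in WC replicates 1 to 3, from 146, 207 and 236 reads. Every EV library lay below every WC library by a wide gap. The means were 16.65 ± 7.47 CPM in EVs and 57.21 ± 9.99 CPM in WC (SD, n = 3 each). The log2 fold change of EPB41 was -1.86 (SE 0.30, 95% interval -2.48 to -1.24, edgeR adjusted p = 1.7e-05). EPB41 fell under every alternative run, at -2.51 to -1.58. With all libraries, TMM and the expression filter EPB41 did not reach a 4-fold change. It did so with total-count scaling at -2.51, without an expression filter at -2.06 and without EV replicate 3 at -2.25.

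Of the 14 EPB41 models 9 are predicted productive, 2 have a premature stop, 2 have no start codon and 1 has no stop. A level was given for 2 of them, neither productive. The 2-exon model without a start codon, of 4172 nt, had an authors' mean of 7.317, and the 9-exon model with a premature stop, of 3436 nt, had 2.468. Together they make 9.785 against 48.54 mean normalized reads for the gene. Inclusion of a 63 nt exon (chr1:29060422-29060484, plus strand, GRCh38), which encodes part of the spectrin-actin-binding domain and is known to rise late in red-cell maturation, is the splice choice shown here:
EPB41 exon: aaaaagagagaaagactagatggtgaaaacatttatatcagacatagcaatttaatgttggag
Of 11 models that span it 7 hold it and 4 lack it. These are models, not counts, so they give no share of transcripts with the exon.

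**Figure D3:**
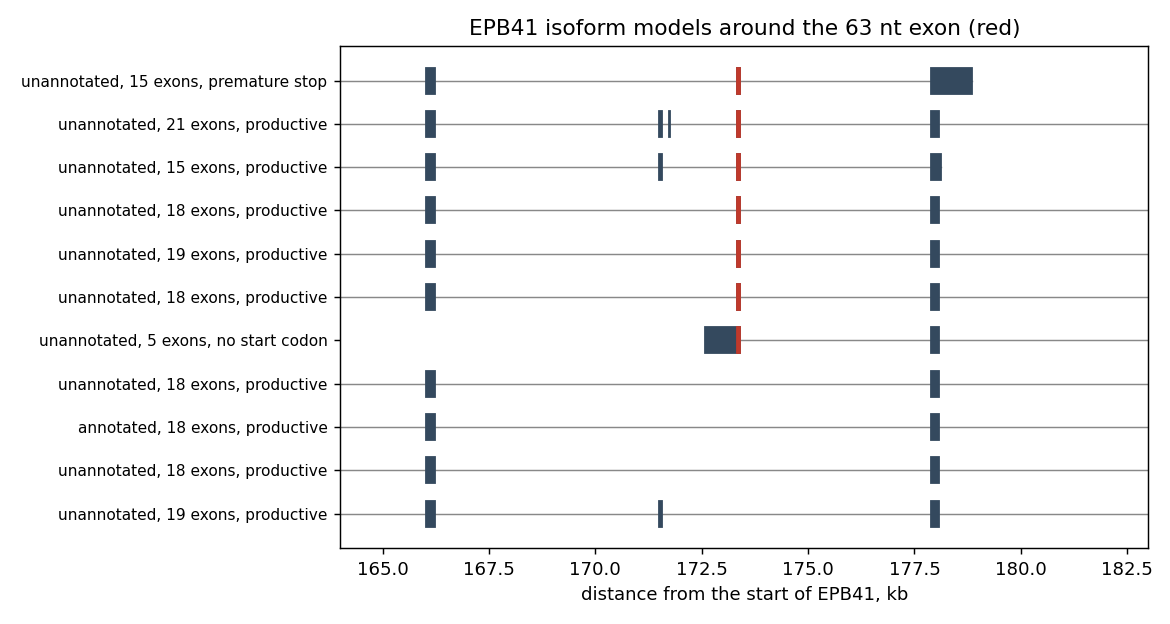
The 11 EPB41 isoform models that span the 63 nt exon, by distance from the start of EPB41 in kb, with exons as boxes to scale and the 63 nt exon in red. The upper 7 models hold it and the lower 4 do not.

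ANK1 encodes ankyrin-1 and lies on chromosome 8. Its level was 28.81, 11.56 and 15.98 CPM in EV replicates 1 to 3, against 23.7, 22.21 and 30.83 CPM in WC replicates 1 to 3. EV replicate 1 was inside the range of the WC libraries and the other EV libraries were below it. The log2 fold change of ANK1 was -0.33 (SE 0.31, 95% interval -0.97 to 0.31, edgeR adjusted p = 0.41). Without EV replicate 1 it was -0.92 (edgeR adjusted p = 0.0678), and under total-count scaling -0.98 (edgeR adjusted p = 0.0122). EV counts were 21, 5 and 7. Of 11 ANK1 models 4 are productive and 7 have no start codon, and 1 had a level: ANK1-205, with 42 exons and 6133 nt, at an authors' mean of 3.57.

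SPTB (chr14:64746283-64879907, minus strand), which encodes the beta chain of erythroid spectrin, had 3, 1 and 1 reads in EV replicates 1 to 3, against 8, 3 and 6 reads in WC. That is 4.12, 2.31 and 2.28 CPM in EVs against 2.75, 0.77 and 1.75 CPM in WC, a ratio of 1.89 with an exact counting interval of 0.54 to 5.33. An exact two-sided permutation test over the 6 CPM values gave p = 0.3, where 0.1 is the smallest 3 against 3 allows. These few reads cannot show a difference at this depth. EPB42 (chr15:43197227-43221018, minus strand), which encodes a protein that helps ankyrin hold the anion exchanger, had 0 reads in every EV library and 1 read in WC, under the 3 reads that serve as a floor here, so no fold is given.

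EPOR (chr19:11377207-11384342, minus strand), the erythropoietin receptor, had 1, 3 and 1 reads in EV replicates 1 to 3, against 16, 21 and 21 reads in WC. The levels were 1.37, 6.94 and 2.28 CPM in EVs and 5.50, 5.36 and 6.11 CPM in WC, and EV replicate 2 lay above all WC libraries. The log2 fold change of EPOR was -0.84 (SE 0.62, 95% interval -2.11 to 0.43, edgeR adjusted p = 0.282). Over the libraries left out in turn it ran from -1.69 without EV replicate 2 to -0.33 without EV replicate 1, and total-count scaling gave -1.48 (edgeR adjusted p = 0.0305). Its 3 isoform models, 1 of them productive, had no level.

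**Figure D4:**
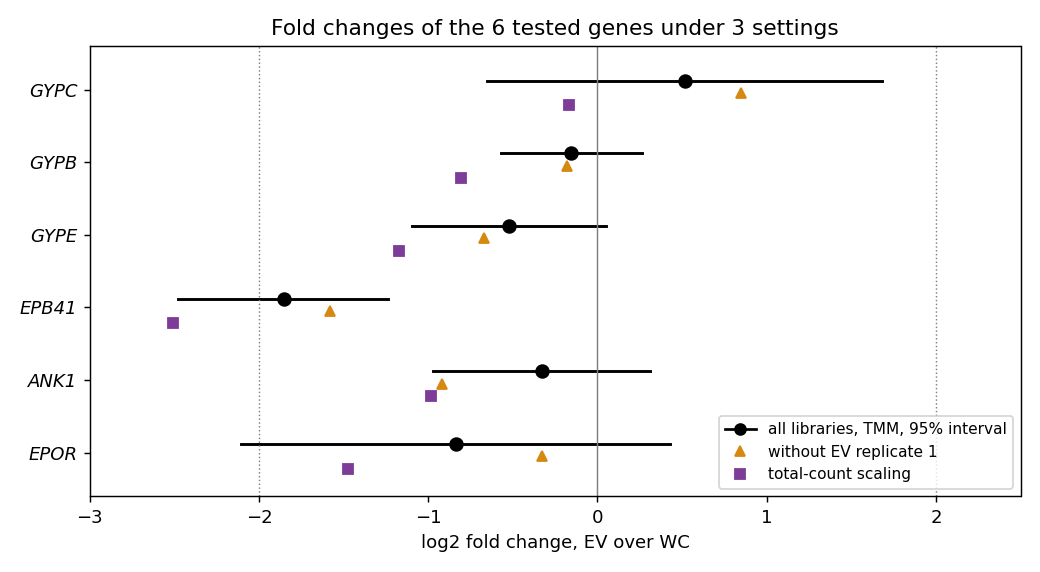
Log2 fold change, EV over WC, of the 6 tested genes with the 95% interval of the fit over all libraries (black), the value without EV replicate 1 (orange triangle) and with total-count scaling (purple square). Only the EPB41 interval lies wholly below 0, and dotted lines mark log2 values of -2 and 2.

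Per exon length, in TPM scaled to total counts, the genes ranked alike at the top. GYPC averaged 148 TPM in EVs and 207 TPM in WC. GYPB averaged 18.9 TPM in EVs and 41.1 TPM in WC, and GYPE 5.48 TPM in EVs and 15.5 TPM in WC. By this measure the rest were far lower. In EVs they were ANK1 0.86, EPOR 0.56, EPB41 0.40 and SPTB 0.10 TPM. In WC they were EPB41 2.78, ANK1 2.25, EPOR 1.77 and SPTB 0.11 TPM. Among ANK1, EPOR and EPB41 the order differs between EVs and WC, and neighbours in it did not differ beyond their spread. These TPM values carry no TMM scaling, so the sign of a difference can depart from the CPM above. They also divide by the union of exons, 19993 nt for EPB41 and 10996 nt for ANK1 against 2007 nt for GYPE. In CPM, EPB41 averaged 57.21 in WC against 32.36 for GYPE. In EVs GYPE averaged 22.05, ANK1 18.78 and EPB41 16.65 CPM.

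Transcript length moved with the fold change over the 6759 tested coding genes with a length. The median log2 fold change was 0.48 for the 511 genes with a canonical transcript up to 1000 nt and -0.50 for the 1305 genes over 6000 nt, with a Spearman rho of -0.24 across genes, which are not independent replicates. GYPB at 564 nt is in the shortest class, GYPC at 1018 nt and GYPE at 1687 nt are in the class over 1000 to 2000 nt (median -0.12), EPOR at 2411 nt in that over 2000 to 4000 nt (median -0.22), and EPB41 at 6031 nt and ANK1 at 8292 nt in the longest. GYPB, at -0.15, was below its class median of 0.48. Of the class over 6000 nt 30.7% fell, and 9.27% lay below EPB41. The part of length in these differences was not tested.

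**Figure D5:**
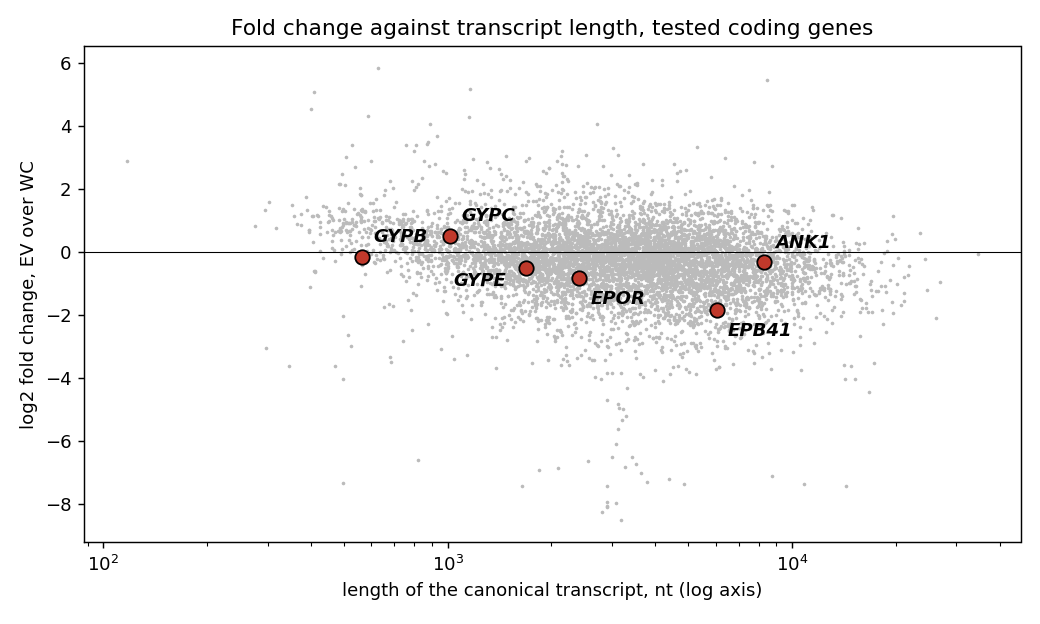
Log2 fold change, EV over WC, against length of the canonical transcript in nt (log axis) for the tested coding genes (grey), with the 6 tested genes marked. EPB41, at 6031 nt and -1.86, lies lowest of the 6, while ANK1, at 8292 nt, lies at -0.33.

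Other genes of the same structures were followed as lists. Of 15 further skeleton and actin-junction genes 12 were tested, with a median log2 fold change of -0.36. Of the 12, 1 rose and 3 fell, where 22.8% and 21.4% of all tested genes did. CAPZB, which caps actin filaments, averaged 36.5 CPM in EVs and 91.2 CPM in WC, a log2 fold change of -1.28 (edgeR adjusted p = 2.4e-04). ADD3, an adducin that caps and bundles actin, had 20.58, 23.13 and 4.57 CPM in EV replicates 1 to 3, against 8.24, 7.66 and 6.98 CPM in WC, and rose, at 1.13 (edgeR adjusted p = 0.0231). EV replicate 3 of ADD3 lay below every WC library, and the call was lost with the replicate block (1.07, edgeR adjusted p = 0.0508), with DESeq2 or total-count scaling, without a filter, and without WC replicate 2 or 3 or EV replicate 1 or 2. ACTB, beta-actin, averaged 656 CPM in EVs and 890 CPM in WC, with a log2 fold change of -0.44 (edgeR adjusted p = 0.0241), a call lost without WC replicate 1 (-0.39) or EV replicate 2 (-0.35) or 3 (-0.37).

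Of 36 other red-cell membrane and blood-group genes 20 were tested, with a median log2 fold change of -0.95. Of the 20, 1 rose and 9 fell, where 22.8% and 21.4% of all tested genes did. With each library left out in turn 8 to 10 fell. CD47, a marker that restrains phagocytosis, averaged 31.0 CPM in EVs and 155 CPM in WC, a log2 fold change of -2.25 (edgeR adjusted p = 1.2e-08). BSG, which carries the Ok antigen, was at -1.45, and RHAG, an ammonium channel of the Rh complex, at -1.46 (edgeR adjusted p = 5.1e-06 and 1.3e-05). AQP3, a glycerol channel, fell at -2.45, KCNN4, a calcium-activated potassium channel, at -2.17, and ATP2B4, a calcium pump, at -2.04 (edgeR adjusted p = 0.00109, 0.00513 and 0.00531). These 3 folds rest on few EV reads: AQP3 had 2, 0 and 2, KCNN4 1, 2 and 1, and ATP2B4 3, 0 and 2 in EV replicates 1 to 3. KCNN4 missed the threshold without EV replicate 1 (-1.75, edgeR adjusted p = 0.0502).

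The paralogue list held 18 relatives, close or distant, of spectrin, ankyrin, protein 4.1 or the EPB42 protein. Only 7 were tested, with a median log2 fold change of 0.11. Of the 7, 2 rose and 1 fell, where 22.8% and 21.4% of all tested genes did. EZR, ezrin, which links membrane proteins to actin, averaged 51.7 CPM in EVs and 15.1 CPM in WC, a log2 fold change of 1.77 (edgeR adjusted p = 2.0e-06). SPTBN1, non-erythroid beta-spectrin, averaged 23.5 CPM in EVs and 12.5 CPM in WC and rose, at 0.92 (edgeR adjusted p = 0.0138). The SPTBN1 call was lost with DESeq2 (0.81, adjusted p = 0.0956), with total-count scaling (0.27), without a filter (0.71), and without EV replicate 1 (0.84) or 3 (0.87). MSN, moesin, averaged 74.5 CPM in EVs and 125 CPM in WC and fell, at -0.74 (edgeR adjusted p = 0.00298).

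Of 22 genes of EPOR signalling 17 were tested, with a median log2 fold change of -0.42. Of the 17, 2 rose and 6 fell, where 22.8% and 21.4% of all tested genes did. The count that fell was 4 with the replicate block or DESeq2 and 3 to 4 with any 1 library left out. The count that rose was 0 with DESeq2, with total-count scaling, without a filter, and without WC replicate 1, WC replicate 2 or EV replicate 3. SOS1, a Ras activator, fell at -1.55 and STAT3, a transcription factor, at -0.67 (edgeR adjusted p = 0.00189 and 0.00474). PTPN6, a phosphatase that ends EPOR signalling, had 0, 0 and 2.28 CPM in EVs, which is 1 read in all, against 9.28, 6.64 and 6.11 CPM in WC (edgeR adjusted p = 0.00425).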

How the data were processed

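Poly(A) cDNA of 3 EV and 3 WC libraries was read on nanopores. The authors basecalled with Guppy, removed short reads with NanoFilt, mapped to GRCh38 (hg38) with minimap2 and used featureCounts in its long-read mode with GENCODE v41. The deposited counts are the authors' raw reads per gene. The deposited signal values are the authors' counts after division by size factors of DESeq2, or, for isoforms, their mean over all libraries. The deposited isoform models (other: exon number) are the authors' FLAIR output. Columns of the authors' own comparison hold fold changes, test statistics and p-values and were not used.

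The 68247 lines of the count table gave 68201 genes, since 46 IDs stood on 2 lines. Of those 46, 24 had reads and 20 had equal counts on both lines in all libraries, so reads of identical copies were counted at both. Annotation came from GENCODE v44, in which 61757 genes with 99.95% of counts were found. The test was the quasi-likelihood test of edgeR 4.0.16 under R 4.3.3 (TMM, the expression filter with the group, robust quasi-likelihood, Benjamini-Hochberg over 8716 genes, adjusted p under 0.05). TMM factors were 0.76 to 0.84 in EVs and 1.20 to 1.31 in WC. Log2 CPM used a prior count of 2, TPM the union of exons, and a floor was 3 reads. Confidence intervals cover 95%, and counting intervals and floors cover counting error only. Depth limits EV values most, since those libraries hold fewer counts. The study's methods pair libraries: same-numbered EV and WC libraries shared a flow cell, and their deviations from group means correlated at 0.062, 0.024 and 0.004. Alternatives were DESeq2 1.42.0, other scalings and filters, thinning of WC libraries, the replicate block and each library left out. The test was checked on simulated data. Sequences came from GRCh38, and Python 3.11.15 and blastn 2.17.0 were used.

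The 8 genes and the lists were chosen with earlier results of these data known. Named were all 8 genes, in each list the 3 tested genes with the lowest adjusted p and any with a log2 fold change past 2 at adjusted p 0.01, and the 3 coding genes nearest to GYPC. Cell type markers were named for their level in WC, and the erythroid genes that rose to show what the values of their list rest on. Some results that the rule would name are not reported here. Models reaching outside the bounds of GYPB or GYPE were left out.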

Additional observations from a re-analysis of the deposited data

How the results depend on the processing

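Of 74 alternative values for the log2 fold changes of the tested genes, 68 kept direction and side of the threshold. With the replicate block the counts over all genes were 1890 risen and 1693 fallen, no call of the 8 genes changed, and GYPC had 0.39 (edgeR adjusted p = 0.172). Total-count scaling gave 5 fallen of the 8 and turned GYPC to -0.17, and over all genes 1066 rose, 4494 fell, 213 were enriched in EVs and 1192 in WC (past a log2 fold change of 2 at adjusted p 0.01). With WC libraries thinned to EV depth these were 1311, 1224, 224 and 260. Enriched in WC were 334 with DESeq2 and 784 without an expression filter. Under total-count scaling GYPB (-0.81), GYPE (-1.17), ANK1 (-0.98) and EPOR (-1.48) fell as well. With TMM and 1 library left out in turn, GYPC ran from 0.24 without EV replicate 3 to 0.85 without EV replicate 1, where it rose. The causes were not tested, other than that thinning left 5286 genes to test. The main fit gave 1987 risen, 1864 fallen, 395 enriched in EVs and 517 enriched in WC. With 1 library left out in turn, 1497 to 2008 genes rose, 1395 to 1868 fell, 308 to 509 were enriched in EVs and 339 to 491 in WC. Each removal thus left fewer genes enriched in WC than the main fit. Of the 8 genes, 0 to 1 rose and 1 to 1 fell. The expression filter left EPOR out without a WC library or with thinned WC libraries. It left SPTB out too, which with DESeq2 (0.71), no filter (0.67) or a mean of 5 reads (0.82) passed no threshold (adjusted p = 0.662, 0.713 and 0.47). EPB42, with 1 read, has no interpretable fold. EV depth limits what can be seen of EPOR, SPTB and EPB42. In the lists, total-count scaling gave 9 fallen and 0 risen for the skeleton, 15 and 0 for membrane and blood-group genes, 2 and 1 for the paralogues, and 12 and 0 for EPOR signalling. Risen skeleton genes were also 0 with DESeq2, thinned WC libraries, no filter or the block. Without a filter 0 membrane, 1 paralogue and 0 EPOR signalling genes rose, with DESeq2 1 paralogue and 0 EPOR signalling genes, and with thinned WC libraries 1 EPOR signalling gene. With 1 library left out, risen and fallen genes were 0 to 1 and 1 to 4 for the skeleton, 1 to 2 and 8 to 10 for membrane genes, 1 to 3 and 1 to 2 for paralogues, and 0 to 2 and 3 to 4 for EPOR signalling.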
